A study of Mus musculus with 5 samples.

Results

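Interferon-stimulated genes are the antiviral and immune genes that cells switch on when they receive an interferon signal. The 33 genes described were listed by name, and of the probe sets annotated to a gene alone, the one of highest mean was used. A probe set shared with another gene was used only where no such set existed. A probe set was found for 32 of the 33, out of 19940 genes tested, and Ifi44 was not matched to one. Isg15 and Gbp2 were read from probe sets that the annotation also assigns to Gm9706 and Gbp2b, respectively, so their values cannot be divided between the partners.

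The RNA came from whole mammary glands of 5 female FvB/N mice aged 8 weeks, 1 Affymetrix whole-transcript array per mouse. The 2 control mice carried the MMTV-rtTA transgene alone, and the 3 cyclin D1 mice carried rtTA together with a CCND1 transgene. rtTA is a transactivator that switches on its target transgene when doxycycline binds it, and the MMTV promoter is active in mammary epithelium, so induction is aimed at that cell type within a mixed tissue. The treatment protocol gives 7 days of doxycycline, worded for mice with a "KE" mutant of CCND1, and does not say whether the controls received the drug. The comparison asks what short-term cyclin D1 expression changes in gland RNA.

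Type I interferons bind a receptor made of IFNAR1 and IFNAR2, and the attached kinases JAK1 and TYK2 phosphorylate STAT2. STAT2 works with IRF9 in a complex that binds the interferon-stimulated response element (ISRE) in the promoters of its target genes, while interferon gamma acts through its own receptor. Products of the target genes block viral RNA and its translation, sense foreign RNA, attract lymphocytes and load peptides for presentation. In the gland the response can be mounted by epithelial, stromal and immune cells alike. In bulk RNA, fewer cells of a type and less RNA per cell cannot be told apart.

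The arrays differed in spread before any gene was considered. The SD across all genes was 0.735 and 0.926 in controls 1 and 2 and between 1.20 and 1.38 in the cyclin D1 glands. The counts and several differences are therefore also given after the deposited values were quantile-normalized across the 5 arrays ("renormalized"). Ccnd1 itself, at 4.04 and 3.49 in the controls and 4.63, 4.92 and 4.0 in cyclin D1 replicates 1, 2 and 3, did not pass the test (limma adjusted p = 0.218). Its difference of 0.75 turned to -0.14 after renormalization. The defining epithelial markers Epcam (5.90 to 6.57 in cyclin D1 glands, 3.41 and 3.99 in controls) and Csn3 were present, as were the adipocyte markers Adipoq and Fabp4, at 6.43 or above on every array. The mean of 1015 olfactory receptor genes, 2.52, 2.38, 2.03, 1.97 and 2.23 on the 5 arrays in that order, served as a rough floor, and 9 of the 32 genes lay at or below it in at least 1 control.

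Of the 32 interferon-stimulated genes, 0 were called higher and 0 lower in cyclin D1 glands (limma with Benjamini-Hochberg adjustment over all genes, threshold 0.05), where 5.38% of all genes were called higher and 0.687% lower. At an unadjusted p under 0.05 there were 6 of the 32 against 26.3% of all genes, 5 of them higher (16.2% of all genes) and 1 lower (10.1%). The median log2 difference, cyclin D1 minus control, was 0.53 over the 32 genes and -0.053 over all genes, and 22 of the 32 differences were positive (44.3% of all genes). That median rested on few glands: it was 0.13 without cyclin D1 replicate 2, with 20 positive, and 0.31 without control 1. After renormalization the median was 0.36 and again 0 genes were called either way, against 0.256% of all genes higher and 0.105% lower. On that scale 4 of the 32 had an unadjusted p under 0.05 (18.7% of all genes) and 23 differences were positive (47.8%).

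The single glands showed what the group means hide. Cyclin D1 replicate 2 had the highest value of the 5 arrays in 21 of the 32 genes, or 65.6%, whereas it was highest in 18.2% of all genes. Control 1 was highest in 3 of the 32 (28.7% of all genes), control 2 in 7 (23.1%), cyclin D1 replicate 1 in 1, Gbp2 (12.6%), and cyclin D1 replicate 3 in 0 (15.5%). In 12 of the 32, cyclin D1 replicate 2 stood at least 1 log2 unit above every other array, against 0.973% of all genes, and in 0 of the 32 did any other array do so (1.15%, 0.241%, 0.471% and 0.0401% of all genes for controls 1 and 2 and cyclin D1 replicates 1 and 3). Renormalized, cyclin D1 replicate 2 was highest in 21 (16.6% of all genes), but not in the same set. Cxcl9 left it and Dhx58 entered, with gaps of -1.12 and 0.0039 to the highest other array, and Bst2 stayed by 0.024. On that scale the same gland stood at least 1 unit clear in 6 (0.281%). Controls 1 and 2 did so in 1 gene each on that scale (4.28% and 0.843%). This pattern in 1 mouse has no replicate and was not tested.

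**Figure D1:**
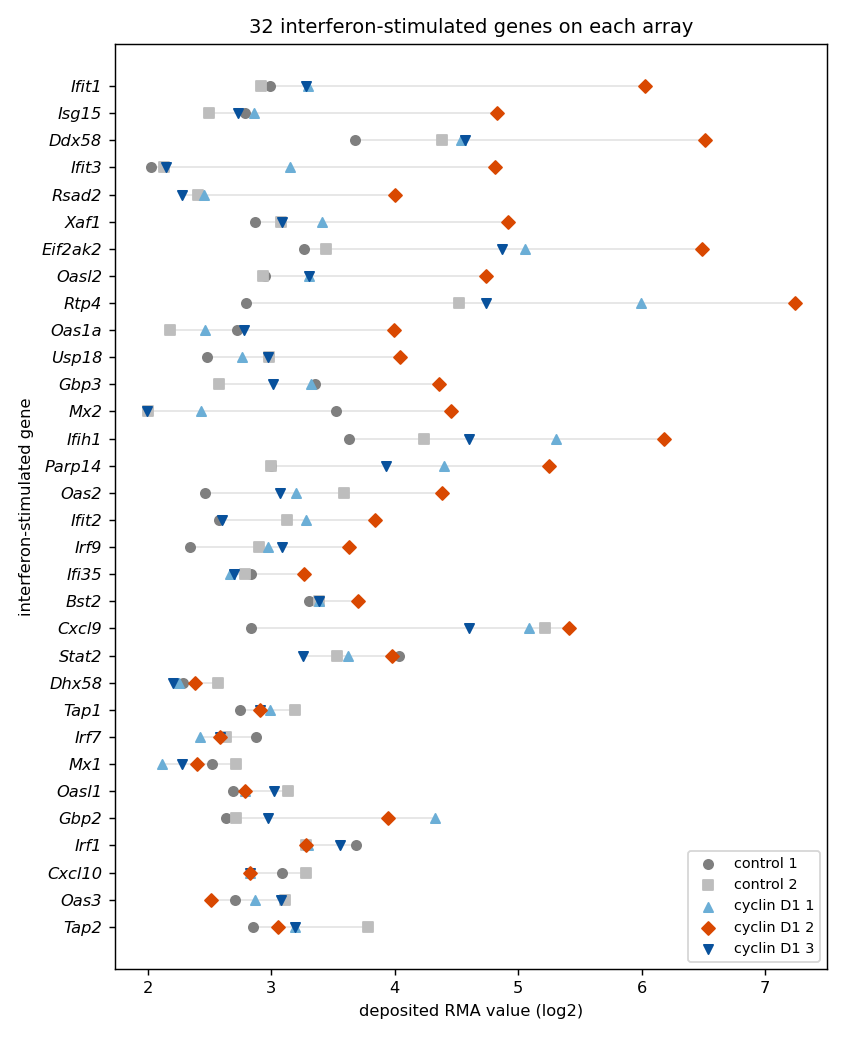
Deposited log2 values (x axis) of the 32 interferon-stimulated genes (rows, ordered by how far cyclin D1 replicate 2 lies above the highest other array), with 1 symbol per array and a grey line over the range. In the upper 21 rows the orange diamond of cyclin D1 replicate 2 lies to the right of all other symbols, farthest for Ifit1.

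**Figure D2:**
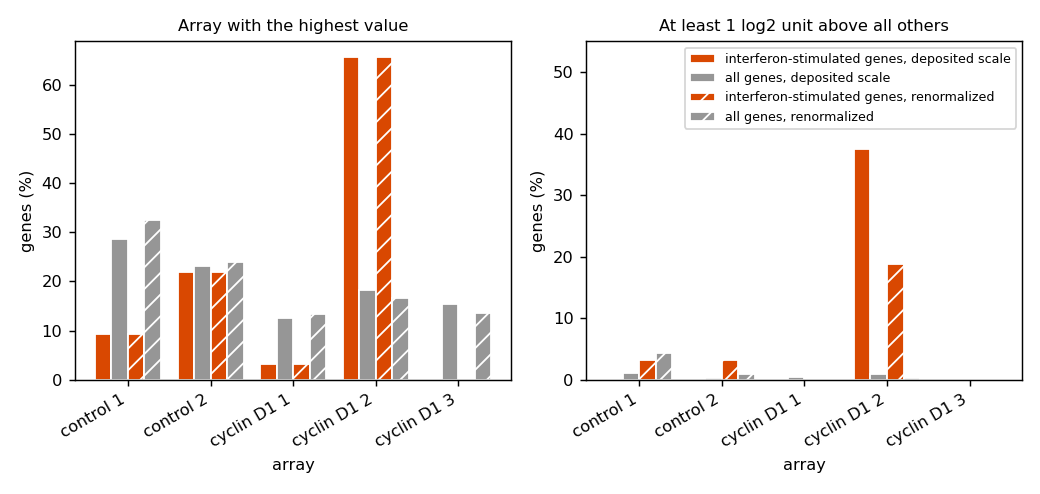
Percentage of genes (y axis) for which each array (x axis) holds the highest value (left) or lies at least 1 log2 unit above every other array (right), for the 32 interferon-stimulated genes (orange) and all genes (grey), as deposited (plain) and renormalized (hatched). Cyclin D1 replicate 2 holds the highest value in 65.6% of the interferon-stimulated genes on both scales, though not in the same set of genes.

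The IFIT genes encode proteins that bind foreign RNA and block its translation. Ifit1 stood at 2.99 and 2.92 in controls 1 and 2 and at 3.30, 6.03 and 3.28 in cyclin D1 replicates 1, 2 and 3. Cyclin D1 replicates 1 and 3 lay a little above the controls, and replicate 2 lay 2.73 above the highest of the other arrays, a gap of rank 4 among all 19940 genes. The group difference of 1.25 (SE 0.89, limma adjusted p = 0.408) became 0.33 without that gland. Ifit3 read 2.02 and 2.13 in controls, both under the floor, and 3.15, 4.81 and 2.15 in cyclin D1 glands. The difference was 0.92 in log2 units when the floor replaced the control values. Replicate 3 was under its floor too, and the fitted difference of 1.29 (SE 0.76, limma adjusted p = 0.331) was 0.57 without cyclin D1 replicate 2. Ifit2, whose gene lies next to Ifit3, read 2.57 and 3.13 against 3.28, 3.84 and 2.60, so the groups overlapped and the second gland was again the highest.

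Promoters of the interferon-stimulated genes were searched for the ISRE core, GAAA and GAAA separated by any 2 bases, read on both strands and with overlapping matches counted, in the 250 bases before the transcription start (RefSeq, GRCm38.p6). Promoters were given for 25 of the 33 genes, and 11 of the 25 held a match (44%), compared with 3.46% of 27025 genes and 2.98% of 32851 promoters of the same length. The genes with a match were Ifit1, Ifit3, Isg15, Oas1a, Oas3, Rsad2, Bst2, Gbp2, Gbp3, Stat2 and Cxcl10. Several of these are related copies, so they do not count as independent promoters, and a match describes letters, not binding. Among the 12 genes in which cyclin D1 replicate 2 stood at least 1 unit clear, 10 had a promoter and 6 of these a match. Among the 9 in which it was highest by less than 1 unit, 6 had a promoter and 1 a match (Bst2). Among the 11 in which it was not highest, 8 had a promoter and 4 a match (Oas3, Gbp2, Stat2 and Cxcl10).

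The 4 promoters with a match whose genes had the highest mean log2 value are shown, 5′ to 3′ on the strand of the gene with the matched letters in capitals. TTTC and TTTC separated by 2 bases is the same core read on the other strand. They span chr19:34640639-34640888 (plus strand) for Ifit1, chr10:128270248-128270497 (plus) for Stat2, chr8:71537473-71537722 (minus) for Bst2 and chr3:142559794-142560043 (plus) for Gbp3.
Ifit1: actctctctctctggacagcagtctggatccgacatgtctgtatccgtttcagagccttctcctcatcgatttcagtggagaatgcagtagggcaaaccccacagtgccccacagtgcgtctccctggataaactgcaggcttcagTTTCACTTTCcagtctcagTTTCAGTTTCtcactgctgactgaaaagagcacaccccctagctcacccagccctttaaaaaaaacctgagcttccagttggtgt
Stat2: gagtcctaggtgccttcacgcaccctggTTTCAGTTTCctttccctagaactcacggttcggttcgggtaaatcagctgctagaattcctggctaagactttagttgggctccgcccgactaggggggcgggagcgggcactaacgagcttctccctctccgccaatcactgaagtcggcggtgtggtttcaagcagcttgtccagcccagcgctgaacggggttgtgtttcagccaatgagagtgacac
Bst2: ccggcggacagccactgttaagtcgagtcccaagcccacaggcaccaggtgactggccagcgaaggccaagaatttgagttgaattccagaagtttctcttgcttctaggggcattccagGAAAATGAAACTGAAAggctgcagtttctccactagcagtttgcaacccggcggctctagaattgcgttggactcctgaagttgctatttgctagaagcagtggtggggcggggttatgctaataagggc
Gbp3: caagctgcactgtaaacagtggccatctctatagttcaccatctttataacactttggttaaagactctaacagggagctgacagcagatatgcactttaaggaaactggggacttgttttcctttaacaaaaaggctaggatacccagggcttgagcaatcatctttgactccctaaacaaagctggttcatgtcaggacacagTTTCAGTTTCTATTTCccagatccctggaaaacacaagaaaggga
Ifit1 carried 2 separate cores, 104 and 85 bases before the start at their first base, whereas in Bst2 and Gbp3 both cores overlapped in a run of 16 bases, and the single core of Stat2 lay 222 bases before it. For Isg15, Oas1a and Rsad2, which stood clear in the same gland, the matched stretch is shown alone, at chr4:156200875-156200896 (minus), chr5:120907530-120907545 (minus) and chr12:26456563-26456572 (minus).
Isg15: GAAAAGGAAACCGAAACAGAAA
Oas1a: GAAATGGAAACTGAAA
Rsad2: TTTCATTTTC
The Isg15 stretch holds 3 overlapping cores in 22 bases.

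Isg15 encodes a ubiquitin-like protein that is attached to other proteins in the interferon response, and Usp18 the protease that removes it. Isg15 read 2.78 and 2.50 in controls and 2.86, 4.83 and 2.73 in cyclin D1 glands, with only the second cyclin D1 gland away from the rest, by 1.97. The group difference was 0.83 (SE 0.67, limma adjusted p = 0.459) and 0.15 without that gland. Usp18 was also highest in that gland, at 2.48 and 2.98 against 2.77, 4.04 and 2.98, and the groups overlapped. Rsad2, the antiviral enzyme viperin, read 2.42 and 2.41 in controls and 2.46, 4.01 and 2.28 in cyclin D1 glands. Its difference of 0.50 became -0.044 without cyclin D1 replicate 2.

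The oligoadenylate synthetases make the second messenger that activates RNase L, and the family was split. Oas1a read 2.72 and 2.18 against 2.47, 3.99 and 2.78, and its other probe set, shared with Oas1g, read 3.37 and 3.65 against 3.23, 4.23 and 3.23. Both probe sets were highest in cyclin D1 replicate 2, and the groups overlapped on both. Oas2 (2.47 and 3.59 against 3.20, 4.38 and 3.08) was also highest there, and Oasl2 (2.95 and 2.94 against 3.31, 4.74 and 3.31) did not overlap between groups. Oas3, next to Oas2 in the genome, was lowest in that gland at 2.51, with 2.71 and 3.11 in controls and 2.87 and 3.08 in the other cyclin D1 glands. Oasl1, next to Oasl2, read 2.69 and 3.14 against 2.79, 2.79 and 3.02. The same split held for the GTPases that trap viral particles: Mx2 read 4.46 in cyclin D1 replicate 2 with 3.52 in control 1 and 2.0 to 2.43 elsewhere, whereas Mx1 stayed between 2.12 and 2.72 on all arrays. Many laboratory mouse strains carry defective Mx genes, and RNA level does not show whether a product is made.

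Eif2ak2, Parp14 and Rtp4 were among the genes with all cyclin D1 values above both controls, with replicate 2 on top. Eif2ak2, the kinase PKR that halts translation on double-stranded RNA, read 3.27 and 3.45 in controls and 5.06, 6.49 and 4.87 in cyclin D1 glands. The difference was 2.12 (SE 0.51, limma adjusted p = 0.0752). It was 1.61 when the second cyclin D1 gland was left out (SE 0.18, limma adjusted p = 0.0640) and 1.48 after renormalization (limma adjusted p = 0.120). Parp14, an ADP-ribosyltransferase, read 3.00 and 2.99 against 4.40, 5.25 and 3.93, a difference of 1.53 (SE 0.39, adjusted p = 0.0837) that was 1.17 without that gland. Rtp4, a chaperone of membrane receptors, spread widely, from 2.80 and 4.52 in controls to 6.0, 7.24 and 4.74, and its difference of 2.33 had an SE of 0.85 (adjusted p = 0.163). That difference was 1.47 without control 1 and 1.5 after renormalization. Neither these genes nor any other of the 32 passed the test. In 11 of the 32 all cyclin D1 values lay above both controls, or 34.4%, against 22.4% of all genes, and in 3 (Mx1, Irf7 and Cxcl10) all lay below, against 22.6%. Renormalized, the counts were 7, or 21.9% (20.1% of all genes), and 1, or 3.12% (19.5%), so the first was near the share of all genes.

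**Figure D3:**
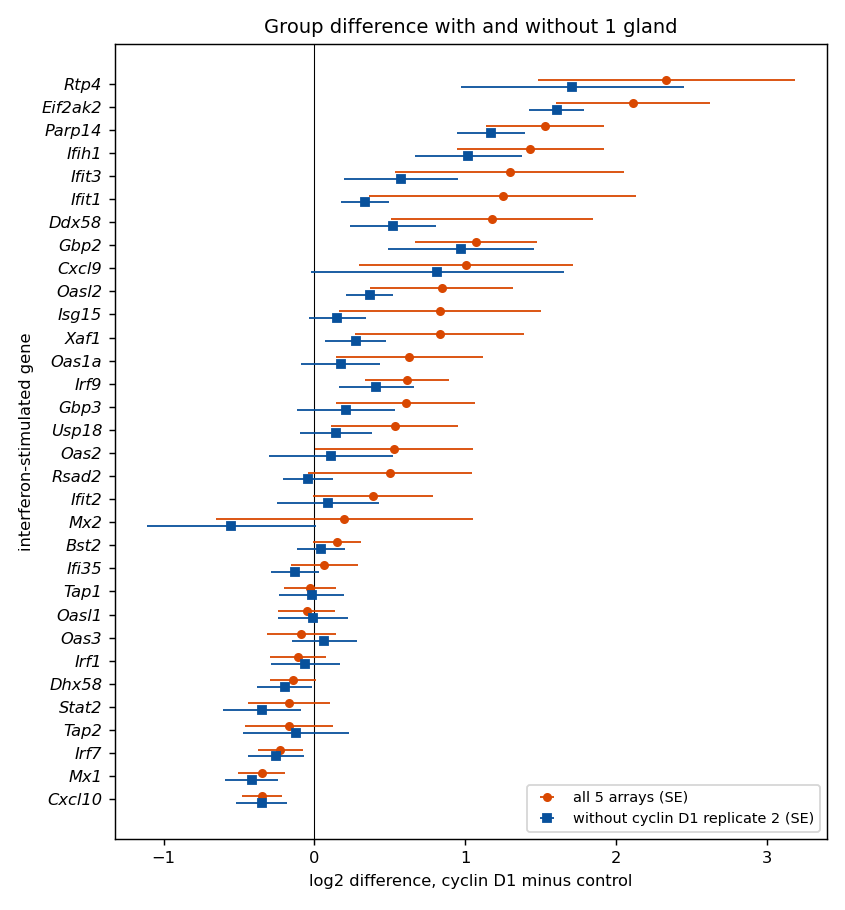
Log2 difference, cyclin D1 minus control (x axis), of the 32 interferon-stimulated genes (rows), from limma on all 5 arrays (orange circles) and without cyclin D1 replicate 2 (blue squares); bars are standard errors. Ifit1 moves from 1.25 to 0.33, Isg15 from 0.83 to 0.15, Rsad2 from 0.50 to -0.044, Eif2ak2 from 2.12 to 1.61 and Parp14 from 1.53 to 1.17.

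Of the cytosolic RNA sensors, Ddx58 (RIG-I) read 3.68 and 4.38 in controls and 4.54, 6.51 and 4.57 in cyclin D1 glands. Cyclin D1 replicates 1 and 3 lay close to control 2, and replicate 2 lay 1.95 above all others. Its difference of 1.18 was 0.18 after renormalization. Ifih1 (MDA5) did not overlap between groups, with 3.63 and 4.24 against 5.31, 6.18 and 4.60, a difference of 1.43 (SE 0.49, limma adjusted p = 0.143) that was 0.43 after renormalization. Dhx58 (LGP2), the regulator of the other two, was dim at 2.21 to 2.57 on all arrays.

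Of the 4 transcription factors, 3 were not highest in cyclin D1 replicate 2. Irf7, which amplifies type I interferon production, read 2.88 and 2.63 in controls and 2.42, 2.59 and 2.58 in cyclin D1 glands. Stat2 read 4.03 and 3.54 against 3.62, 3.98 and 3.25, with control 1 the highest, and its difference of -0.17 was -0.87 after renormalization. Irf1, which serves both interferon types, read 3.69 and 3.28 against 3.30, 3.28 and 3.56, although its dimmer probe set was highest in cyclin D1 replicate 2 at 3.11 (2.56 and 2.97 in controls). Irf9 alone of the 4 was highest there, at 3.63, with 2.97 and 3.08 in the other cyclin D1 glands and 2.34 and 2.90 in controls, a difference of 0.61 (SE 0.28, limma adjusted p = 0.234).

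Among the remaining effectors, Xaf1, which antagonises an apoptosis inhibitor, read 2.87 and 3.08 against 3.41, 4.92 and 3.08. Gbp3, a guanylate-binding GTPase, read 3.35 and 2.57 against 3.33, 4.36 and 3.01, whereas Gbp2 was highest in cyclin D1 replicate 1 (2.64 and 2.72 against 4.32, 3.94 and 2.97). Ifi35 and Bst2, which tethers budding virions, spanned only 2.67 to 3.27 and 3.30 to 3.70, with the second gland at the top of both ranges. The chemokines CXCL9 and CXCL10, which draw T cells through the receptor CXCR3, are targets of interferon gamma. Cxcl9 read 2.84 in control 1 and 5.22 in control 2, and 5.09, 5.42 and 4.60 in cyclin D1 glands, so control 1 alone stood low. The difference of 1.01 was -0.19 without that control and 0.27 after renormalization. Cxcl10 was listed at 2.83 on all cyclin D1 arrays, below 3.09 and 3.28 in controls (difference -0.35, SE 0.13, limma adjusted p = 0.172). Its cyclin D1 values were equal to each other, so no measured spread among those glands entered that SE. The peptide transporters Tap1 (2.75 to 3.19) and Tap2 (2.85 to 3.78) were both highest in control 2.

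A further list of 33 interferon-stimulated genes, none of them among those above, was described in the same way. Of the 30 measured, limma called 0 higher and 0 lower (5.38% and 0.687% of all genes). At an unadjusted p under 0.05 there were 9, against 26.3% of all genes, and 24 had positive differences (44.3% of all genes). The median was 0.46, or 0.19 without cyclin D1 replicate 2 and 0.16 after renormalization. Cyclin D1 replicate 2 was highest in 21 of the 30 (18.2% of all genes), and in 14 after renormalization (16.6%). It stood at least 1 log2 unit above every other array in 4 (0.973% of all genes), and in 1 after renormalization (0.281%). The list's median level was 4.44 in cyclin D1 replicate 2, 3.73 and 3.34 in the other cyclin D1 glands and 3.06 and 3.18 in controls. The arrays came in the same order in the first list (4.0, 3.20 and 3.05, and 2.84 and 3.04). There cyclin D1 replicate 3 and control 2 were nearly level. The widest gap of the second list was in the antiviral exonuclease gene Isg20, at 2.75 and 2.88 against 2.85, 4.35 and 2.90. The next was in the helicase gene Ddx60, at 3.21 and 2.97 against 3.59, 4.95 and 3.32. Ly6e (2.22, SE 0.47), Parp9 (1.81, SE 0.44) and Ifitm3 (3.67, SE 0.91) had the smallest p and did not pass, with adjusted p = 0.0595, 0.0767 and 0.0777 in limma. After renormalization their differences were 0.78, 1.51 and 2.29. Of all 100 genes with the widest gap of cyclin D1 replicate 2 above the other arrays, 9 belonged to the first list, where such genes make up 0.502% of all genes, and 3 to the second.

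Genes upstream of the response were mixed. The 9 measured interferon genes had a median difference of 0.009, and limma called 0 higher and 0 lower (5.38% and 0.687% of all genes). At an unadjusted p under 0.05 there were 0 (26.3% of all genes), and cyclin D1 replicate 2 was highest in 0 of them (18.2%). After renormalization 2 had an unadjusted p under 0.05 (18.7% of all genes), and that gland was highest in 2 (16.6%). Both counts were near the share of all genes. Ifnl2, with the smallest p, read 5.81 in control 1 and 4.30 to 4.45 on the other arrays (difference -0.76, or -2.10 after renormalization). Ifnb1 read 1.81 in cyclin D1 replicate 2. It lay at or below the floor on all cyclin D1 arrays and in control 2, and control 1 stood at 2.53 with a floor of 2.52. Of the 9 interferon genes 4 lay at or below the floor in each control, and 1, 2 and 3 in cyclin D1 replicates 1, 2 and 3. Of 13 receptor and JAK-STAT genes 1 was called higher and 0 lower, where 5.38% of all genes were called higher. Their median was 0.82, or 0.48 without cyclin D1 replicate 2 and 0.51 after renormalization. The called gene, Ifnar2, rose from 3.09 and 4.41 to 6.64, 6.53 and 5.73 (difference 2.55, SE 0.47, limma adjusted p = 0.0447), with replicate 1 the highest, and did not pass after renormalization (1.62, adjusted p = 0.206). Of 14 genes of nucleic acid sensing 2 were called higher (5.38% of all genes) and 0 lower. Their median was 0.33, or 0.21 without cyclin D1 replicate 2 and 0.17 without control 1. They were Tlr3, the endosomal sensor of double-stranded RNA, at 3.08 and 3.21 against 5.24, 6.23 and 5.32 (difference 2.45, SE 0.33, adjusted p = 0.0251), and the kinase gene Tbk1, at 2.70 and 2.85 against 4.37, 4.76 and 3.89 (1.56, SE 0.27, adjusted p = 0.0394). Renormalized, these had adjusted p = 0.0511 and 0.0541. Of 12 genes of class I presentation 10 had positive differences (44.3% of all genes), with a median of 0.89. After renormalization 5 did (47.8%), with a median of -0.23. Only the chaperone gene Pdia3 was called higher (5.38% of all genes). Its difference of 1.56 (limma adjusted p = 0.0226) was 0.059 after renormalization. In the same comparison 4 of 9 luminal epithelial markers were called higher (Cdh1, Csn3, Elf5 and Epcam, list median 1.44), where 5.38% of all genes were. Of 6 myoepithelial markers 1 was called higher, Acta2, and 4 had positive differences (44.3% of all genes). After renormalization 0 markers of either list were called higher, against 0.256% of all genes, and the luminal median was 0.88. The part of epithelial content in the calls of Ifnar2, Tlr3, Tbk1 and Pdia3 was not tested.

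Other measured features of cyclin D1 replicate 2 stood beside the interferon-stimulated genes. It was highest in 6 of 9 T cell markers, or 4 after renormalization (18.2% and 16.6% of all genes), with a list median of 3.32 against 2.65 to 2.95 on the other arrays. Cd3g read 4.59 there and 2.83 to 3.85 elsewhere, Cd8b1 4.24 and 2.86 to 3.27, and the B cell marker Ms4a1 4.44 and 2.17 to 3.37, while Cd3d, Cd4 and Cd8a were highest in a control. The B cell markers Cd79a, Cd79b and Pax5 were also highest in a control. Cyclin D1 replicate 2 was highest in 2 of 6 B cell, 1 of 7 dendritic cell and 0 of 7 neutrophil markers, or 3, 2 and 2 after renormalization. In 0 of 10 macrophage and 0 of 7 natural killer cell markers was it highest, on both scales. The macrophage list peaked in cyclin D1 replicate 1 (median 4.06). Cyclin D1 replicate 2 was lowest in 5 of 7 adipocyte markers on both scales, with Adipoq at 6.43 against 7.57 to 8.66. It was lowest in 5579 of all 19940 genes, or 3246 after renormalization. Of 9 luminal epithelial markers it was highest in 5, or 4 after renormalization, with Wap at 11.6 against 4.71 to 9.52. The median of 5 endothelial markers was also highest there, at 4.13 against 3.01 to 3.78, though 1 of the 5 peaked in that gland. The part of these features in the interferon-stimulated gene values was not tested.

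**Figure D4:**
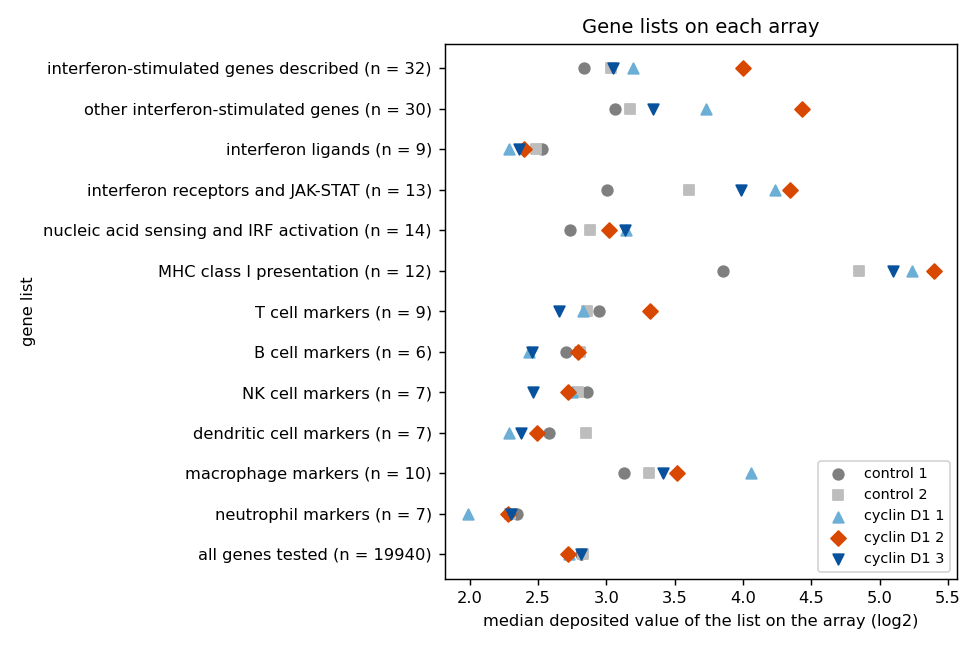
Median deposited log2 value (x axis) of each gene list (rows, n genes measured) on each array, 1 symbol per array. Among the lists drawn, cyclin D1 replicate 2 lies to the right of the other arrays for both interferon-stimulated lists and T cell markers, by less for the receptor and class I presentation lists, and within their range for the interferon genes and for B, NK, dendritic cell, macrophage and neutrophil markers.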

How the data were processed

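Expression was measured in mammary gland RNA of 5 mice, with groups taken from the sample titles. The values are log2 expression per probe set, which the authors deposited; the submitters' processing notes name Expression Console 1.1 and RMA, and the log base was inferred from their range (0.830 to 12.9). RMA as a method corrects background, quantile-normalizes and summarises probes. The deposited arrays did not share a distribution, with SDs over all genes from 0.735 in control 1 to 1.38 in cyclin D1 replicate 2. The values therefore do not show a quantile normalization of all 5 arrays together. The number of arrays limits the precision.

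Of 35556 probe sets, 21789 had 1 gene symbol, 1621 several and 12146 none. The probe set with the highest mean was kept per gene, and Isg15 and Gbp2 were added from shared ones, giving 19940 genes. Cyclin D1 and control arrays were tested by lmFit and eBayes of limma 3.58.1 under R 4.3.3 (two-sided, 3 residual degrees of freedom), adjusted by Benjamini-Hochberg over all genes at 0.05; the procedure was tested on simulated data. In 19.9% of genes, 2 or more arrays held equal values. Alternatives were renormalization, median centring, an intensity trend, the mean of probe sets, a filter on dim genes, the replicate number as a block and leaving out each array. Of each further list the 3 genes with the smallest p are the ones the naming rule selects; others named there, and the gap of cyclin D1 replicate 2, were chosen after values were seen. The members and lists were chosen with earlier results of these data known. The design text calls the mice separate, so each array is 1 replicate.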

Additional observations from a re-analysis of the deposited data

How the results depend on the processing

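The count of interferon-stimulated genes called was 0 in each direction under every alternative run except the replicate number as a block, which called 5 higher: Eif2ak2, Gbp2, Rtp4, Parp14 and Ifih1. The numbers name separate mice, and the deviations of same-numbered arrays correlated at -0.026 and 0.13 across genes. With 2 controls the deviations mirror each other, so these values cannot show whether same-numbered arrays share more than a number. Cyclin D1 replicate 3 has no control of its number. The block estimate of Eif2ak2, 2.42, was the same as without that array. Over all genes the block fit called 1138 of 19940 higher and 10 lower, and it put Stat2 at 0.013. Over all genes, 1072 were higher and 137 lower; renormalization gave 51 and 21, an intensity trend 622 higher, and leaving out 1 array 0 to 1365 higher and 0 to 1062 lower. The median of the 32 genes ran from 0.13 to 0.74 with 1 array left out. The gap of at least 1 log2 unit in cyclin D1 replicate 2 held for 6 genes after renormalization and 12 as deposited. Those alternatives to this gap were chosen after seeing the data. In 19 of the 32 genes the difference kept its sign in every alternative. It turned, without a call on either side, after renormalization in Mx2 (-0.078), Oasl1 (0.010), Bst2 (-0.082), Dhx58 (0.035) and Tap1 (0.0004), after median centring in Oasl1 (0.020) and Tap1 (0.039), and with the mean of both probe sets in Irf1 (0.016). With 1 array left out the ranges that crossed 0 were -0.56 to 0.96 for Mx2, -0.036 to 1.09 for Oas2, -0.29 to 0.11 for Oas3, -0.27 to 0.17 for Oasl1, -0.044 to 0.82 for Rsad2, -0.13 to 0.17 for Ifi35, -0.31 to 0.096 for Irf1, -0.42 to 0.081 for Stat2, -0.19 to 2.20 for Cxcl9, -0.25 to 0.19 for Tap1 and -0.63 to 0.30 for Tap2. The cause was not tested. Where 1 control is left, it is assumed to vary like the other group.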

Other observations

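Outside the interferon-stimulated lists, the genes named here come from the 100 with the widest gap of cyclin D1 replicate 2 above every other array. They were chosen by hand after their values were seen, for what they are known to do, and stand for no group. Pip, a secreted protein of exocrine glands, read 5.59 there and 1.95 to 2.31 on the other arrays (rank 1). Olah, the thioesterase that releases medium-chain fatty acids in milk fat synthesis, read 8.14 against 2.65 to 4.90 (rank 2), and Slc34a2, a phosphate transporter, 8.21 against 3.56 to 5.52. Wap, whey acidic protein, had rank 10, and the chemokine gene Ccl28, which draws antibody-secreting cells to mucosal tissue and gland, read 6.61 against 3.36 to 4.38. Bank1, a B cell scaffold protein, read 4.99 against 2.24 to 3.13, and the T cell genes Prkcq and Ptpn22 read 4.48 against 2.53 to 2.94 and 4.47 against 2.67 to 2.95. Sp100, a nuclear body protein that interferon induces and neither list held, read 7.08 against 3.48 to 5.34. These are values of 1 mouse, with no test.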
